A study of Rattus norvegicus with 15 samples.

Results

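The genes described are 45 rat genes of the cell division cycle, given as a list of names. They form 23 genes of DNA replication and 22 genes of mitosis. Of the 45 names, 44 matched a line of the deposited table of 22250 genes, all 23 replication genes and 21 mitosis genes. The expression of Ccnb2 was not analysed here, and it enters only the counts of promoter strings below. All 44 passed the filter on low values, a level of at least 1 FPKM (fragments per kilobase of transcript, scaled to the mapped fragments of the library) in at least 5 of the 15 libraries, and so did 13457 genes in all. Of the 44, 30 were at 1 FPKM or more in every control library. The other 14 were under 1 FPKM in some control library and passed only with libraries of the groups given lipopolysaccharide. Among these 14, Mcm10, Cdc6 and Ttk were under 1 FPKM in every control library.

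RNA was sequenced from lung of rats with the genotype WT in all groups, with 5 libraries in each of 3 groups. The SJY group was given lipopolysaccharide (LPS, a component of the outer membrane of Gram-negative bacteria) by the trachea and Sang Ju Yin (SJY, a Chinese herbal formula) into the stomach. The ALI group, short for acute lung injury, was given LPS by the trachea, and the control group is labelled as normal. The labels give no strain, sex, age, dose or time after LPS, name no group that had SJY without LPS or the vehicle of either, and do not say whether a library is 1 animal or a pool. Each library was taken as a sample of its own, and the p-values rest on the spread among libraries, which may be technical. Libraries carry the labels' numbers, which are 1, 3, 4, 5 and 6 for SJY, 1 to 5 for ALI and 4 to 8 for control, and values are given in that order.

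A cell copies its DNA in S phase and separates the copies in mitosis. Before S phase the Mcm2 to Mcm7 proteins are loaded as a ring on replication origins, and the ring later unwinds the DNA as the replicative helicase. Cyclin-dependent kinase 1 with cyclin B drives entry into mitosis, and the spindle, its checkpoint and the anaphase-promoting complex then separate the chromosomes. Most cells of the adult lung do not divide, and transcripts of these genes are widely used as a sign of dividing cells. In RNA of bulk tissue, a larger number of dividing cells and more transcript in each of them cannot be told apart. FPKM is per transcript length, so levels can be set side by side between genes. Such a comparison is rough where reads may belong to another gene, which was not tested.

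The libraries carried lung RNA: the summed level of 8 markers of alveolar type II cells was 17784 to 20283 FPKM in SJY libraries, 6106 to 21098 FPKM in ALI libraries and 16531 to 25266 FPKM in control libraries. The summed level of 10 neutrophil markers was 8414 to 14879 FPKM in SJY libraries, 2243 to 23319 FPKM in ALI libraries and 151 to 241 FPKM in control libraries. ALI 1 and ALI 3 stood apart from the other ALI libraries. In ALI 1, the 13 mitochondrially encoded genes made up 37.7% of the summed FPKM, against 5.19 to 17.1% in the other 14 libraries, and it had the lowest type II sum and the highest neutrophil sum. In ALI 3, the summed level of 8 B and plasma cell markers was 1777 FPKM, the highest of the 15 libraries. Counts that rest on these libraries are given with and without them.

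Promoters are shown first, because short strings known from promoters of cell cycle genes were found at different shares in the 2 sets of genes. RefSeq start sites on the GRCr8 assembly gave promoters of 300 bases, 250 before to 50 after the start. They covered 37 of the 45 genes, 19 of replication and 18 of mitosis. These 37 genes had 40 promoters, with 3 for Uhrf1 and 2 for Kif2c. A gene was counted where any of its promoters held the string, while promoters of the whole reference were counted singly. The strings searched, on both strands, were forms of the E2F site (TTTCCCGC, TTTCGCGC, TTTGCCGC and TTTGGCGC), known as a binding site of E2F factors at S phase genes; forms of the CHR, the cell cycle genes homology region (TTTGAA and TTTAAA), known from genes expressed in G2 phase and mitosis; and the CCAAT box (CCAAT), a site of the factor NF-Y. An E2F string was found in 10 of 19 replication genes (52.6%) and in 1 of 18 mitosis genes (5.56%, Cdk1). Such strings occurred in 716 of all 33469 reference promoters (2.14%) and in 402 of 10086 genes in the fit with a promoter (3.99%). For Uhrf1, 1 of its 3 promoters held an E2F string. A CHR string was found in 3 of 19 replication genes (15.8%, Mcm2, Prim1 and Ccne1) and in 18 of 18 mitosis genes. It occurred in 9455 of all promoters (28.3%) and in 2021 of the genes in the fit (20.04%). For Kif2c, 1 of its 2 promoters held a CHR string and 1 did not. CCAAT was found in 13 of 19 replication genes (68.4%) and in 14 of 18 mitosis genes (77.8%). It occurred in 37.5% of all promoters and in 38.7% of the genes in the fit with a promoter. A match describes the letters and is not evidence of binding.

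**Figure D1:**
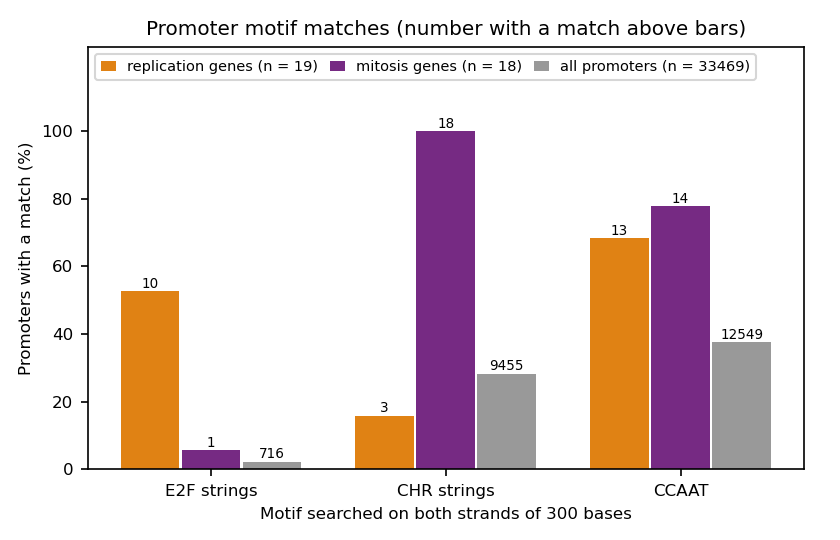
Share (percent, bars from 0) of replication genes, mitosis genes and all promoters of the reference with each string on either strand of 300 bases. The number with a match stands above each bar. A gene counts where any of its promoters holds the string, and the reference is counted by promoter. E2F strings stand at 52.6% in replication genes and 5.56% in mitosis genes, and CHR strings at 15.8% in replication genes and in 18 of 18 mitosis genes.

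The 4 promoters below belong to the 2 genes of each group with the largest rise in ALI among those with an entry, Mcm5 and Mcm3 of replication and Birc5 and Ccnb1 of mitosis. Each runs 5′ to 3′ on the gene's own strand from 250 bases before the start to 30 bases after it (GRCr8, credited to RefSeq), with matches to the strings above in capitals. Mcm5 lies on the plus strand at chr19:13488563-13488842, Mcm3 on the minus strand at chr9:30733717-30733996, Birc5 on the plus strand at chr10:103571896-103572175 and Ccnb1 on the minus strand at chr2:33655196-33655475.
Mcm5: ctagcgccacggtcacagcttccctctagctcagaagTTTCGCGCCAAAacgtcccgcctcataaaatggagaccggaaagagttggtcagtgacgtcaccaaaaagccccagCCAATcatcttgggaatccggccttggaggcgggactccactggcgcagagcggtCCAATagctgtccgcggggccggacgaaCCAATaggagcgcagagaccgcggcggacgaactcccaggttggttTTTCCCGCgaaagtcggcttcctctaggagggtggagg
Mcm3: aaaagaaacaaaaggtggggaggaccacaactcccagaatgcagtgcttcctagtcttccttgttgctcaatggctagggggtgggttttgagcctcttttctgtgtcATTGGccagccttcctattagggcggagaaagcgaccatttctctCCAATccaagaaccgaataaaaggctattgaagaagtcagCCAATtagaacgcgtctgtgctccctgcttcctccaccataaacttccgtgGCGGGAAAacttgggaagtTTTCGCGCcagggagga
Birc5: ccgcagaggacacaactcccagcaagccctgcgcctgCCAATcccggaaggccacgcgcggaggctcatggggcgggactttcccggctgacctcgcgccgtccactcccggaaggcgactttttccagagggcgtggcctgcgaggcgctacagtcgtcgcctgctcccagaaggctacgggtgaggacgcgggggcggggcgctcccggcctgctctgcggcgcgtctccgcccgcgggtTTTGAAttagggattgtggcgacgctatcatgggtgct
Ccnb1: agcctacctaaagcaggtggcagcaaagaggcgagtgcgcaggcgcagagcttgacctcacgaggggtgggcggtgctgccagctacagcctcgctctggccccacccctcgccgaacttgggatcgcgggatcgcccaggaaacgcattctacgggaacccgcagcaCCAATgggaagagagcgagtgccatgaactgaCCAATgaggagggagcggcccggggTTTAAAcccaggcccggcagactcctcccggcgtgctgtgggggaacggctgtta
The Mcm5 promoter held 2 overlapping E2F strings, TTTCGCGC on the gene's strand and TTTGGCGC on the other, which together make 1 run of capitals, and a further E2F string, TTTCCCGC, that ended at the base before the start. In the Mcm3 promoter, TTTCCCGC lay on the opposite strand across the start and TTTCGCGC lay just after it. Each of these promoters held 3 CCAAT boxes and no CHR string. Birc5 held TTTGAA just before the start with 1 CCAAT box far upstream, Ccnb1 held TTTAAA with 2 CCAAT boxes upstream of it, and neither held an E2F string.

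Genes of both sets rose in the LPS groups. In ALI libraries against control libraries, 18 of the 44 genes rose and 0 fell at a Benjamini-Hochberg adjusted p under 0.05 (limma, two-sided, adjusted over all 13457 genes), where 8.02% of all genes were called higher and 9.56% lower. In SJY libraries against the same control libraries, 21 rose and 0 fell, where 14.6% of all genes were called higher and 18.1% lower. The median log2 fold change of the 44 genes, on the log2(FPKM + 1) scale used throughout, was 0.60 in SJY and 0.65 in ALI, against -0.11 and -0.12 over all genes in the fit. The fold change was above 0 for 39 of the 44 in SJY and for 40 in ALI, against 5547 and 5064 of all 13457 genes. In 11 of the 44 all SJY libraries lay above all control libraries, against 11.8% of all genes, and in 6 all ALI libraries did, against 6.17% of all genes. The comparisons against control share the control libraries. Of the called genes, Ccnb1, Ube2c, Uhrf1, Kif2c, Ccne1, Mcm10 and Cdc6 passed the filter only with libraries of the LPS groups. With no filter, 16 of the 44 rose in SJY and 17 in ALI, where 4442 and 2238 of 18545 genes were called in either direction. The number of genes called in ALI was 11 without control 5, 11 without control 7, 12 without ALI 3 and 28 without ALI 1, and in SJY it was 13 without SJY 3. Over all genes, in the same order, 1545, 1538, 1944 and 2285 were called in ALI in either direction, and 3513 in SJY. In the main fit these numbers were 2366 in ALI and 4390 in SJY. Without ALI 1 and ALI 3 together, a choice made after seeing the data, 13 rose in ALI, where 1574 of 13371 genes were called in either direction.

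**Figure D2:**
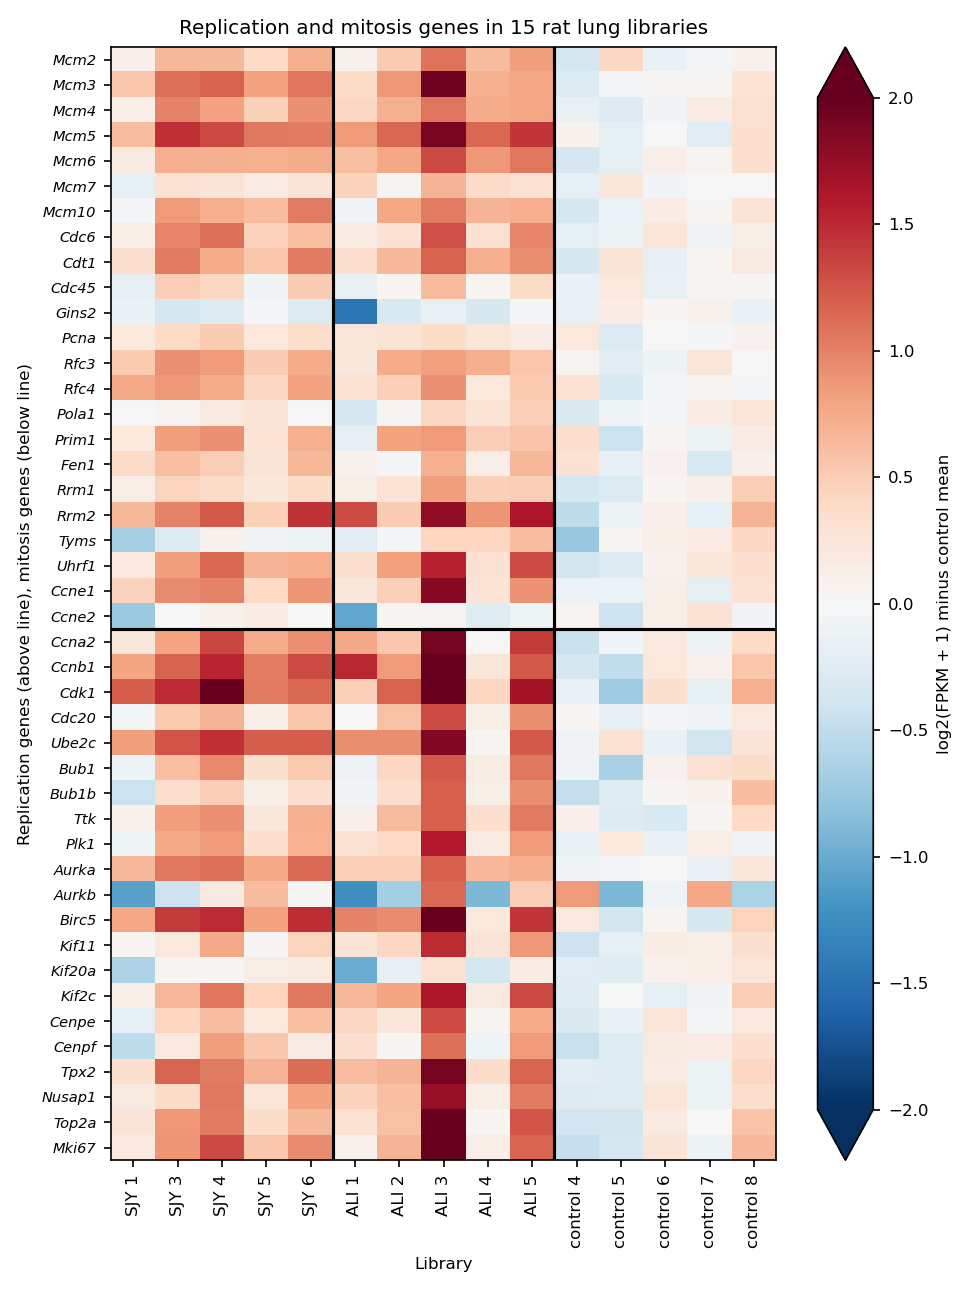
Heat map of log2(FPKM + 1) minus the mean of the control libraries (colour scale ending at 2 and -2) for 23 replication genes above the horizontal line and 21 mitosis genes below it, by library. ALI 3 holds the highest value among the ALI libraries for 20 of 23 replication genes and 21 of 21 mitosis genes, and Gins2, Ccne2, Kif20a and Aurkb have mean differences below 0 in both LPS groups.

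**Figure D3:**
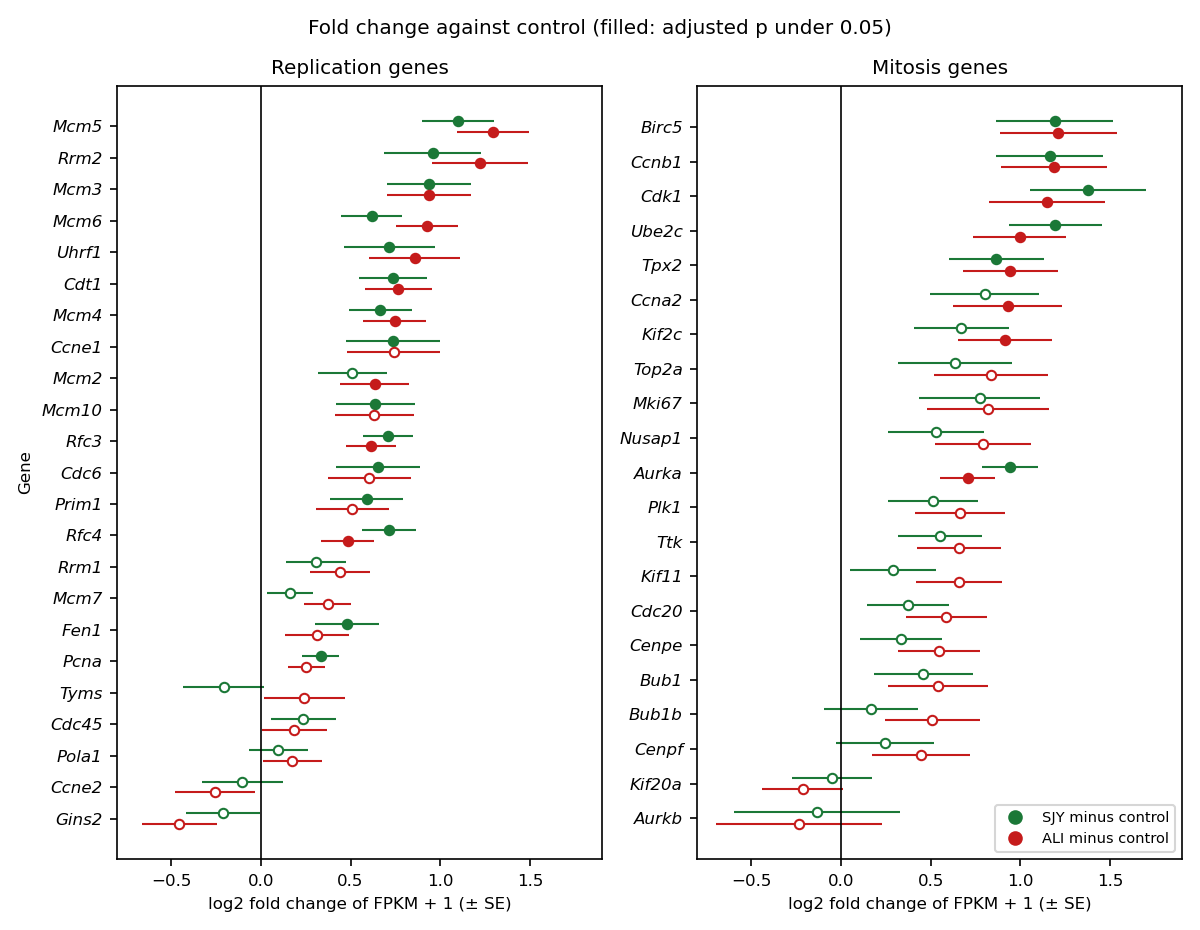
Log2 fold change against control, with limma's standard error, of each gene in SJY (green, upper) and ALI (red, lower), filled where the adjusted p is under 0.05. Values run from -0.21 for Gins2 to 1.38 for Cdk1 in SJY and from -0.45 for Gins2 to 1.29 for Mcm5 in ALI, and no gene below 0 is filled.

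Of the helicase subunits and their loaders, Mcm3, Mcm4, Mcm5, Mcm6 and Cdt1 rose in both LPS groups. Mcm5, a subunit of the ring, stood at 5.47, 10.7, 9.56, 7.83 and 7.74 FPKM in SJY libraries, 6.63, 8.37, 14.8, 8.39 and 10.4 FPKM in ALI libraries, and 3.44, 2.69, 3.28, 2.67 and 4.29 FPKM in control libraries. Every SJY and every ALI library lay above every control library. Its log2 fold change was 1.10 ± 0.20 in SJY (adjusted p = 0.00105) and 1.29 ± 0.20 in ALI (adjusted p = 0.000573), the largest of the 44 genes in ALI. For Mcm3 the levels were 10.02, 15.3, 16.3, 12.3 and 15.03 FPKM in SJY libraries, 8.85, 12.9, 28.4, 11.5 and 12.1 FPKM in ALI libraries, and 5.32, 6.42, 6.71, 6.72 and 8.15 FPKM in control libraries. Again neither LPS group overlapped the controls, although ALI 3 lay far above the other ALI libraries. The log2 fold change of Mcm3 was 0.94 ± 0.23 in SJY (adjusted p = 0.00718) and 0.94 ± 0.23 in ALI (adjusted p = 0.0132).

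Mcm6 was measured at 6.62, 10.2, 10.2, 10.1 and 10.3 FPKM in SJY libraries, 9.25, 10.5, 15.9, 11.4 and 13.1 FPKM in ALI libraries, and 4.35, 4.91, 6.43, 5.998 and 7.54 FPKM in control libraries. The ALI libraries all lay above the controls, and SJY 1 lay within the control range while the other 4 SJY libraries lay close together above it. Mcm6 rose by 0.62 ± 0.17 in SJY (adjusted p = 0.0127) and by 0.92 ± 0.17 in ALI (adjusted p = 0.00213) on the log2 scale. Mcm4 also rose in both, averaging 12.6 ± 3.13 FPKM in SJY, 13.2 ± 2.31 FPKM in ALI and 7.47 ± 1.35 FPKM in control libraries (SD, n = 5 each), with log2 fold changes of 0.67 ± 0.18 (adjusted p = 0.00999) in SJY and 0.75 ± 0.18 (adjusted p = 0.00991) in ALI. Mcm2 averaged 10.8 ± 2.01 FPKM in SJY, 12.0 ± 3.22 FPKM in ALI and 7.30 ± 1.68 FPKM in control libraries (SD, n = 5 each), and its log2 fold change of 0.51 ± 0.19 in SJY missed the threshold (adjusted p = 0.0531) while that of 0.63 ± 0.19 in ALI passed it (adjusted p = 0.0335). Mcm7 had the highest level of the ring subunits in every group, at 22.2 ± 2.88 FPKM in SJY, 25.9 ± 4.23 FPKM in ALI and 19.7 ± 2.28 FPKM in control libraries (SD, n = 5 each), and the smallest change, with log2 fold changes of 0.16 ± 0.13 (adjusted p = 0.359) in SJY and 0.37 ± 0.13 (adjusted p = 0.0594) in ALI. Whether the change of Mcm7 differed from that of the other subunits was not tested.

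Of the loading factors, Cdt1 averaged 5.49 ± 1.36 FPKM in SJY, 5.63 ± 1.46 FPKM in ALI and 2.86 ± 0.618 FPKM in control libraries (SD, n = 5 each), and neither LPS group overlapped the controls. It rose by 0.74 ± 0.19 in SJY (adjusted p = 0.00846) and by 0.77 ± 0.19 in ALI (adjusted p = 0.0127) on the log2 scale. Cdc6, the other loader, was scarce, at 1.41 ± 0.642 FPKM in SJY, 1.38 ± 0.863 FPKM in ALI and 0.496 ± 0.184 FPKM in control libraries (SD, n = 5 each). Its log2 fold change was 0.65 ± 0.23 in SJY (adjusted p = 0.0414) and 0.60 ± 0.23 in ALI (adjusted p = 0.0807), so that it was called in SJY alone, a difference between the groups that was not called in its own test. Mcm10, which helps to start the loaded helicase, stood at 1.65 ± 0.646 FPKM in SJY, 1.65 ± 0.648 FPKM in ALI and 0.677 ± 0.261 FPKM in control libraries (SD, n = 5 each), with log2 fold changes of 0.64 ± 0.22 in SJY (adjusted p = 0.0364) and 0.63 ± 0.22 in ALI (adjusted p = 0.0568). Mcm10 and Cdc6 were under 1 FPKM in every control library, so their entry into the fit rested on the LPS groups.

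Cdc45 and the GINS complex are partners that complete the moving helicase, and Cdc45 and Gins2 were not called. Cdc45 was measured at 0.758, 1.77, 1.61, 0.876 and 1.79 FPKM in SJY libraries, 0.779, 1.01, 2.06, 1.02 and 1.53 FPKM in ALI libraries, and 0.784, 1.27, 0.772, 1.04 and 0.998 FPKM in control libraries. Its groups overlapped throughout, and its log2 fold change was 0.24 ± 0.18 in SJY (adjusted p = 0.334) and 0.19 ± 0.18 in ALI (adjusted p = 0.474). Gins2, a subunit of the GINS complex, had the lowest fold change of all 44 genes in ALI: it stood at 14.1, 12.1, 12.7, 15.2 and 12.7 FPKM in SJY libraries, 5.05, 12.4, 13.9, 12.2 and 15.3 FPKM in ALI libraries, and 14.01, 17.4, 16.1, 16.7 and 14.1 FPKM in control libraries. ALI 1 was far below the other 14 libraries, which lay between 12.1 and 17.4 FPKM. The log2 fold change of Gins2 was -0.21 ± 0.21 in SJY (adjusted p = 0.462) and -0.45 ± 0.21 in ALI (adjusted p = 0.134). Of the other subunits, Gins1 rose by 1.35 in SJY (adjusted p = 0.000536) and by 0.82 in ALI (adjusted p = 0.0205). Gins4 rose by 0.68 in SJY (adjusted p = 0.0111) and had 0.39 in ALI (adjusted p = 0.138), and Gins3 was not called, with 0.28 in SJY (adjusted p = 0.193) and 0.35 in ALI (adjusted p = 0.133).

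Among the helicase genes and loaders, the calls of Mcm3, Mcm4, Mcm5, Mcm6 and Cdt1 in both comparisons were kept when any single library was left out. With the replicate number as a block, the ALI calls of Mcm3 and Cdt1 were lost. The call of Mcm2 in ALI was lost without ALI 3, ALI 5 or control 4, 6, 7 or 8 (adjusted p up to 0.0786). It was also lost in a fit of only the 2 groups and with the block (limma adjusted p up to 0.108). In SJY, the call of Mcm10 was lost without SJY 3, 4, 5 or 6 or control 4, 5, 6 or 7 (adjusted p up to 0.0888). That of Cdc6 was lost without SJY 3, 4 or 6 or any control (adjusted p up to 0.104).

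Pcna rose in SJY, and Rfc3 and Rfc4 rose in both LPS groups. Pcna, the clamp that holds the polymerases on DNA, had the highest level of the replication genes in every group and stood at 67.7, 78.8, 85.0, 68.7 and 76.1 FPKM in SJY libraries, 70.5, 71.8, 76.4, 70.6 and 65.8 FPKM in ALI libraries, and 68.6, 49.2, 59.4, 58.6 and 62.7 FPKM in control libraries. The groups overlapped through control 4, which lay above control 5 to 8. Pcna rose by 0.33 ± 0.10 in SJY (adjusted p = 0.0209), and its log2 fold change in ALI was 0.25 ± 0.10 (adjusted p = 0.0918). Rfc3 and Rfc4 encode subunits of the clamp loader, whose other subunits Rfc1, Rfc2 and Rfc5 were not called, with log2 fold changes of -0.21, -0.02 and 0.41 in SJY (adjusted p = 0.222, 0.947 and 0.0637) and of -0.10, 0.11 and 0.42 in ALI (adjusted p = 0.615, 0.653 and 0.0831). Rfc3 averaged 12.7 ± 1.74 FPKM in SJY, 11.9 ± 1.98 FPKM in ALI and 7.36 ± 1.01 FPKM in control libraries (SD, n = 5 each), and rose by 0.71 ± 0.14 in SJY (adjusted p = 0.00176) and by 0.61 ± 0.14 in ALI (adjusted p = 0.00812) on the log2 scale. Rfc4 averaged 15.3 ± 1.86 FPKM in SJY, 13.0 ± 2.75 FPKM in ALI and 8.94 ± 1.51 FPKM in control libraries (SD, n = 5 each), with rises of 0.71 ± 0.15 in SJY (adjusted p = 0.00254) and 0.48 ± 0.15 in ALI (adjusted p = 0.0357). For both Rfc3 and Rfc4, every SJY library lay above every control library. The ALI call of Rfc4 was lost without ALI 2, 3 or 5 or control 5, 6, 7 or 8 (adjusted p up to 0.0911), and the SJY call of Pcna without SJY 3, SJY 4 or control 5 (adjusted p up to 0.0594). In ALI, the Rfc4 call was also lost without ALI 1 and ALI 3 together and in a fit of only the 2 groups. With the replicate number as a block it was lost too (limma adjusted p over these settings up to 0.310). The block also ended the SJY calls of Rfc4 and Pcna (limma adjusted p = 0.0680 and 0.103).

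Of the enzymes among the 45 that start and finish DNA strands, Prim1 and Fen1 rose in SJY and none was called in ALI. Pola1, the catalytic subunit of DNA polymerase alpha, had the smallest change of the replication genes in ALI, at 2.15, 2.27, 2.57, 2.75 and 2.16 FPKM in SJY libraries, 1.54, 2.19, 3.21, 2.83 and 3.40 FPKM in ALI libraries, and 1.59, 1.98, 2.10, 2.49 and 2.74 FPKM in control libraries. All 3 groups overlapped. Its log2 fold change was 0.10 ± 0.16 in SJY (adjusted p = 0.683) and 0.18 ± 0.16 in ALI (adjusted p = 0.453), with a 95% interval of -0.25 to 0.44 in SJY and -0.17 to 0.52 in ALI. Prim1, the primase subunit that works with it, was higher in level, at 25.2 ± 5.73 FPKM in SJY, 24.0 ± 6.16 FPKM in ALI and 16.3 ± 3.26 FPKM in control libraries (SD, n = 5 each), and rose by 0.59 ± 0.20 in SJY (adjusted p = 0.0368), while its log2 fold change in ALI was 0.51 ± 0.20 (adjusted p = 0.0913). Fen1, the nuclease that trims flaps between lagging strand fragments, rose by 0.48 ± 0.18 in SJY (adjusted p = 0.0485), with 0.31 ± 0.18 in ALI (adjusted p = 0.213). The SJY call of Prim1 was lost without SJY 3, 4 or 6 or control 5, 6 or 7 (adjusted p up to 0.0958). That of Fen1 was lost without SJY 1, 3, 4 or 6, ALI 4 or control 5, 6, 7 or 8 (adjusted p up to 0.126).

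Ribonucleotide reductase makes the building blocks of DNA. Its small subunit Rrm2, whose transcript is known to be cell cycle dependent, stood at 5.64, 7.48, 8.90, 4.90 and 10.6 FPKM in SJY libraries, 9.51, 5.07, 13.5, 6.88 and 12.1 FPKM in ALI libraries, and 2.003, 2.95, 3.58, 2.75 and 5.79 FPKM in control libraries. Each LPS group overlapped the controls only through control 8, the highest control. Rrm2 rose by 0.96 ± 0.27 in SJY (adjusted p = 0.0137) and by 1.22 ± 0.27 in ALI (adjusted p = 0.00665) on the log2 scale. The large subunit Rrm1 averaged 13.2 ± 1.22 FPKM in SJY, 14.8 ± 3.04 FPKM in ALI and 10.7 ± 2.85 FPKM in control libraries (SD, n = 5 each), with log2 fold changes of 0.31 ± 0.17 in SJY (adjusted p = 0.165) and 0.44 ± 0.17 in ALI (adjusted p = 0.0742). Thymidylate synthase, Tyms, averaged 3.89 ± 0.890 FPKM in SJY, 5.74 ± 1.61 FPKM in ALI and 4.75 ± 1.51 FPKM in control libraries (SD, n = 5 each) and was not called in either, with -0.21 ± 0.23 in SJY (adjusted p = 0.511) and 0.24 ± 0.23 in ALI (adjusted p = 0.455).

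Uhrf1, which reads half-methylated DNA behind the fork, averaged 3.19 ± 0.954 FPKM in SJY, 3.80 ± 1.87 FPKM in ALI and 1.54 ± 0.522 FPKM in control libraries (SD, n = 5 each). It rose by 0.72 ± 0.25 in SJY (adjusted p = 0.0410) and by 0.86 ± 0.25 in ALI (adjusted p = 0.0301). The SJY call was lost without SJY 3, 4, 5 or 6, ALI 2 or control 4, 5, 6 or 7 (adjusted p up to 0.101), and the ALI call without ALI 2, 3 or 5 or control 4, 5 or 6 (adjusted p up to 0.0749). Both were also lost with the replicate number as a block. The SJY call was lost too with no filter, and the ALI call in a fit of only the 2 groups (limma adjusted p up to 0.107). Ccne1 and Ccne2 encode the cyclins E, which start S phase with Cdk2. Ccne1 averaged 1.94 ± 0.561 FPKM in SJY, 2.18 ± 1.73 FPKM in ALI and 0.749 ± 0.253 FPKM in control libraries (SD, n = 5 each), and every SJY library lay above every control library. It rose by 0.74 ± 0.26 in SJY (adjusted p = 0.0404), and its log2 fold change in ALI was 0.74 ± 0.26 (adjusted p = 0.0599). The SJY call was lost without SJY 3, 4 or 6 or control 4, 5, 6 or 7 (adjusted p up to 0.0882). Ccne2 averaged 5.45 ± 1.37 FPKM in SJY, 4.87 ± 1.54 FPKM in ALI and 5.85 ± 1.17 FPKM in control libraries (SD, n = 5 each), with log2 fold changes of -0.10 ± 0.23 in SJY (adjusted p = 0.757) and -0.26 ± 0.23 in ALI (adjusted p = 0.428).

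**Figure D4:**
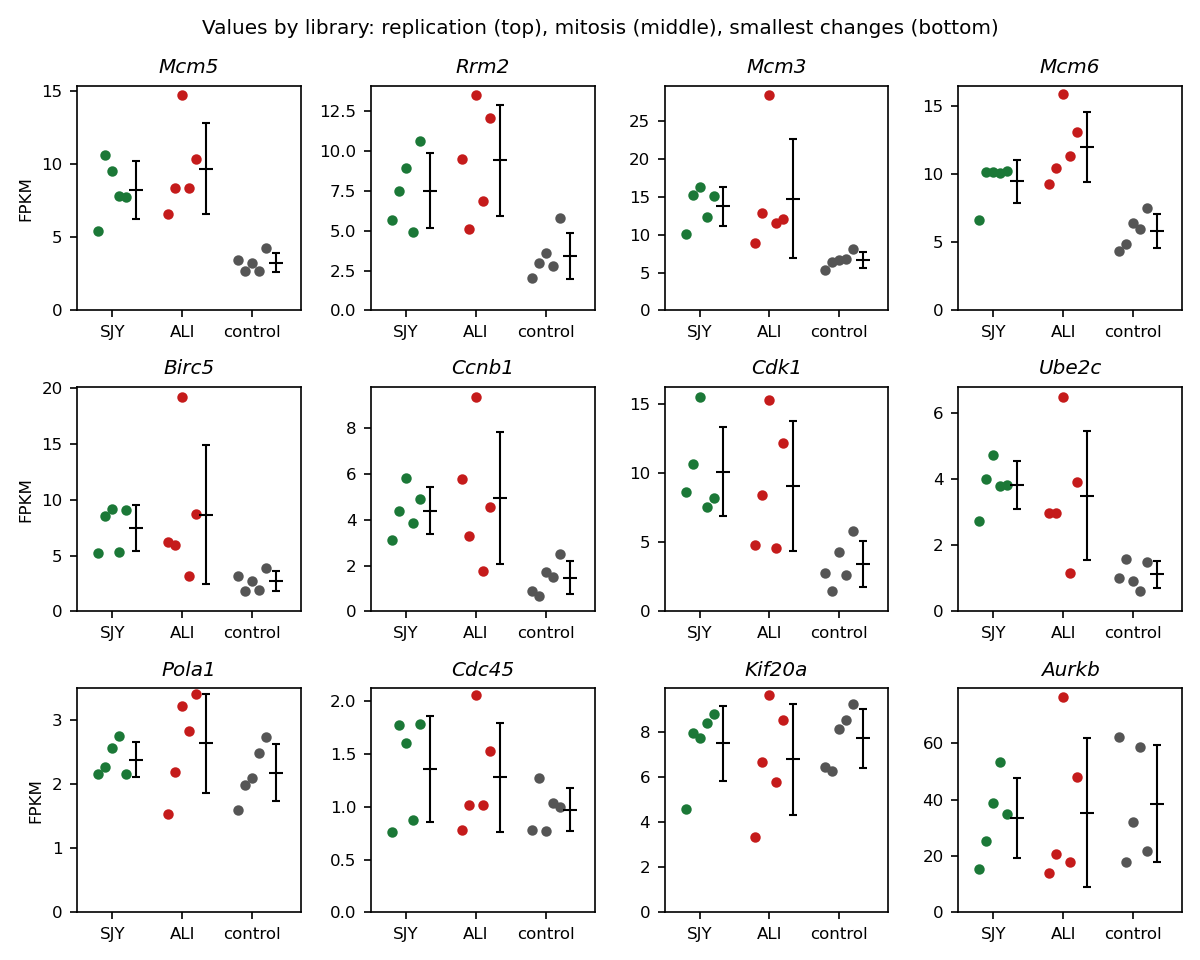
FPKM in each library (points), with the group mean and SD beside them (n = 5), for the replication genes with the largest changes in ALI (top), the mitosis genes with the largest changes in ALI (middle) and the 2 genes of each group with the smallest (bottom). Mcm5 runs from 5.47 to 10.7 FPKM in SJY and from 6.63 to 14.8 FPKM in ALI, against 2.67 to 4.29 FPKM in control, while Kif20a and Aurkb overlap in all groups.

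The 4 mitosis genes with the largest rises in ALI were Birc5, Ccnb1, Cdk1 and Ube2c. Cdk1, the mitotic kinase, stood at 8.61, 10.6, 15.5, 7.52 and 8.20 FPKM in SJY libraries, 4.79, 8.38, 15.3, 4.60 and 12.2 FPKM in ALI libraries, and 2.78, 1.51, 4.26, 2.63 and 5.80 FPKM in control libraries. Every SJY library lay above every control, whereas ALI 1 and ALI 4 lay within the control range. Cdk1 had the largest rise of the 44 genes in SJY, 1.38 ± 0.32 (adjusted p = 0.00497), and rose by 1.15 ± 0.32 in ALI (adjusted p = 0.0232), a call lost without ALI 3, control 5 or control 7 (adjusted p up to 0.0656). The ALI call was also lost in a fit of only the 2 groups and with the replicate number as a block (limma adjusted p up to 0.179). With the block, the SJY call of Cdk1 was lost as well (limma adjusted p = 0.0620). Its partner Ccnb1, cyclin B1, was measured at 3.11, 4.37, 5.83, 3.85 and 4.90 FPKM in SJY libraries, 5.79, 3.28, 9.38, 1.78 and 4.58 FPKM in ALI libraries, and 0.878, 0.687, 1.74, 1.52 and 2.50 FPKM in control libraries. The SJY libraries all lay above the controls, and ALI 4 lay among the controls. Ccnb1 rose by 1.16 ± 0.30 in SJY (adjusted p = 0.00833) and by 1.19 ± 0.30 in ALI (adjusted p = 0.0137), and both calls were kept without any single library. Both were lost with the replicate number as a block, and the ALI call also without ALI 1 and ALI 3 together.

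Ccna2, cyclin A2, which acts from S phase into mitosis, averaged 4.91 ± 1.59 FPKM in SJY, 5.98 ± 3.62 FPKM in ALI and 2.36 ± 0.737 FPKM in control libraries (SD, n = 5 each). Its log2 fold change was 0.80 ± 0.31 in SJY (adjusted p = 0.0554) and 0.93 ± 0.31 in ALI (adjusted p = 0.0468), and the ALI call was lost without SJY 3, 5 or 6, ALI 1, 3 or 5, or any control (adjusted p up to 0.101, without ALI 3). The Ccna2 call was also lost with no filter, in a fit of only the 2 groups and with the replicate number as a block. Without ALI 1 and ALI 3 together it was lost too (limma adjusted p over these settings up to 0.192). Ube2c, the ubiquitin-conjugating enzyme of the anaphase-promoting complex, stood at 2.74, 4.01, 4.75, 3.82 and 3.84 FPKM in SJY libraries, 2.98, 2.98, 6.51, 1.16 and 3.91 FPKM in ALI libraries, and 1.00, 1.58, 0.909, 0.626 and 1.497 FPKM in control libraries. Again the SJY libraries lay above all controls while ALI 4 lay within the control range. It rose by 1.19 ± 0.26 in SJY (adjusted p = 0.00315) and by 1.00 ± 0.26 in ALI (adjusted p = 0.0161), without loss of the call when any single library was left out. Both calls were lost with the replicate number as a block. The ALI call was also lost in a fit of only the 2 groups and without ALI 1 and ALI 3 together (limma adjusted p up to 0.247). Cdc20, the activator of the same complex, averaged 4.44 ± 1.11 FPKM in SJY, 5.57 ± 2.51 FPKM in ALI and 3.14 ± 0.388 FPKM in control libraries (SD, n = 5 each) and was not called, with 0.37 ± 0.23 in SJY (adjusted p = 0.223) and 0.59 ± 0.23 in ALI (adjusted p = 0.0829).

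The spindle checkpoint kinases Bub1, Bub1b and Ttk were not called. They had log2 fold changes of 0.46, 0.17 and 0.55 in SJY (adjusted p = 0.217, 0.656 and 0.0819) and of 0.54, 0.51 and 0.66 in ALI (adjusted p = 0.175, 0.178 and 0.0621). Their levels were low, and Ttk averaged 1.21 ± 0.547 FPKM in SJY, 1.42 ± 0.761 FPKM in ALI and 0.493 ± 0.303 FPKM in control libraries (SD, n = 5 each). Plk1, a kinase of centrosomes and kinetochores, averaged 4.45 ± 1.32 FPKM in SJY, 5.33 ± 2.96 FPKM in ALI and 2.74 ± 0.437 FPKM in control libraries (SD, n = 5 each), with 0.51 ± 0.25 in SJY (adjusted p = 0.129) and 0.66 ± 0.25 in ALI (adjusted p = 0.0779).

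Aurka, the kinase of the spindle poles, was the mitosis gene with the smallest standard error. It was measured at 9.23, 12.6, 13.1, 10.1 and 13.4 FPKM in SJY libraries, 8.10, 8.09, 14.1, 9.38 and 9.78 FPKM in ALI libraries, and 5.31, 5.41, 5.55, 4.95 and 6.66 FPKM in control libraries. Neither LPS group overlapped the controls, and it was the only one of the 21 mitosis genes in which all ALI libraries lay above all control libraries. Aurka rose by 0.94 ± 0.15 in SJY (adjusted p = 0.000506) and by 0.71 ± 0.15 in ALI (adjusted p = 0.00633), calls kept without any single library. Birc5, also called survivin, and Aurkb belong to the chromosomal passenger complex. Birc5 stood at 5.199, 8.54, 9.20, 5.32 and 9.09 FPKM in SJY libraries, 6.22, 5.94, 19.2, 3.19 and 8.71 FPKM in ALI libraries, and 3.14, 1.80, 2.73, 1.896 and 3.94 FPKM in control libraries. The SJY libraries lay above all controls, ALI 4 lay within the control range and ALI 3 was above every other library. Birc5 rose by 1.19 ± 0.33 in SJY (adjusted p = 0.0120) and by 1.21 ± 0.33 in ALI (adjusted p = 0.0193). The ALI call was lost without control 5 or control 7 (adjusted p up to 0.0531). It was also lost in a fit of only the 2 groups and without ALI 1 and ALI 3 together. With the replicate number as a block it was lost too (limma adjusted p over these settings up to 0.180). The block also ended the SJY call of Birc5 (limma adjusted p = 0.115).

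Aurkb was not called. It was measured at 15.5, 25.2, 38.8, 53.2 and 34.8 FPKM in SJY libraries, 14.1, 20.9, 76.2, 17.9 and 48.1 FPKM in ALI libraries, and 62.2, 17.8, 31.9, 58.8 and 21.7 FPKM in control libraries, the highest level of the mitosis genes in every group. Controls 4 and 7 lay above 4 of the 5 ALI libraries, and ALI 3 was the highest library of all. The log2 fold change was -0.13 ± 0.46 in SJY (adjusted p = 0.848) and -0.23 ± 0.46 in ALI (adjusted p = 0.743), with a standard error above that of every other member.

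Of the motor and spindle genes among the 45, Tpx2 rose in both LPS groups and Kif2c in ALI. Tpx2, which builds spindle microtubules and activates Aurka, averaged 3.81 ± 1.09 FPKM in SJY, 4.36 ± 2.58 FPKM in ALI and 1.62 ± 0.559 FPKM in control libraries (SD, n = 5 each) and rose by 0.87 ± 0.26 in SJY (adjusted p = 0.0210) and 0.94 ± 0.26 in ALI (adjusted p = 0.0237). The SJY call of Tpx2 was lost without SJY 3 or control 5 and the ALI call without control 5 or control 7 (adjusted p up to 0.0533 and 0.0602). Both were also lost with the replicate number as a block. The ALI call of Tpx2 was lost too in a fit of only the 2 groups and without ALI 1 and ALI 3 together. Over these settings, the limma adjusted p was up to 0.0567 in SJY and 0.0777 in ALI. Kif2c, a motor that takes microtubules apart at centromeres, averaged 2.01 ± 0.821 FPKM in SJY, 2.67 ± 1.42 FPKM in ALI and 0.863 ± 0.418 FPKM in control libraries (SD, n = 5 each). Its log2 fold change was 0.67 ± 0.26 in SJY (adjusted p = 0.0607) and 0.92 ± 0.26 in ALI (adjusted p = 0.0262), the ALI call being lost without ALI 3 or control 5, 6 or 7 (adjusted p up to 0.0627). The Kif2c call was also lost in a fit of only the 2 groups and without ALI 1 and ALI 3 together. With the replicate number as a block it was lost too (limma adjusted p over these settings up to 0.140).

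Kif11, the motor that pushes the spindle poles apart, Cenpe and Cenpf of the kinetochore, and Nusap1 of the spindle were not called. Their log2 fold changes were 0.29, 0.34, 0.24 and 0.53 in SJY and 0.66, 0.55, 0.44 and 0.79 in ALI, with adjusted p between 0.0535 and 0.519. Kif20a, a motor of cell cleavage, had the smallest change of the mitosis genes in ALI, at 4.61, 7.96, 7.74, 8.42 and 8.79 FPKM in SJY libraries, 3.33, 6.69, 9.64, 5.79 and 8.55 FPKM in ALI libraries, and 6.44, 6.28, 8.14, 8.53 and 9.24 FPKM in control libraries. SJY 1, ALI 1 and ALI 4 lay below all controls, ALI 3 lay above them, and the other libraries were within the control range. The log2 fold change was -0.05 ± 0.22 in SJY (adjusted p = 0.882) and -0.21 ± 0.22 in ALI (adjusted p = 0.511).

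The common proliferation marker Mki67 was measured at 3.32, 5.97, 8.45, 4.47 and 6.25 FPKM in SJY libraries, 3.02, 5.10, 14.2, 3.16 and 7.52 FPKM in ALI libraries, and 1.752, 1.98, 3.51, 2.53 and 4.96 FPKM in control libraries. SJY 3, 4 and 6 and ALI 2, 3 and 5 lay above every control, and the other libraries of both groups within the control range. The log2 fold change of Mki67 was 0.77 ± 0.34 in SJY (adjusted p = 0.0920) and 0.82 ± 0.34 in ALI (adjusted p = 0.102), so it did not pass the test in either. Top2a, the topoisomerase that untangles sister chromosomes, averaged 4.59 ± 1.26 FPKM in SJY, 6.12 ± 4.20 FPKM in ALI and 2.64 ± 1.04 FPKM in control libraries (SD, n = 5 each) and was likewise not called, with 0.64 ± 0.32 in SJY (adjusted p = 0.134) and 0.84 ± 0.32 in ALI (adjusted p = 0.0767).

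Replication and mitosis genes were then set side by side. In SJY against control, 15 of 23 replication genes and 6 of 21 mitosis genes rose, 65.2% and 28.6%, where 14.6% of all genes did. In ALI against control, 10 of 23 and 8 of 21 rose, 43.5% and 38.1%, where 8.02% of all genes did. These splits moved when single libraries were left out. In SJY, 8 replication and 5 mitosis genes rose without SJY 3, 8 and 6 without SJY 4, 9 and 6 without SJY 6, control 6 or control 7, and 9 and 5 without control 5. In ALI, 8 and 3 rose without control 5 or control 7, 7 and 5 without ALI 3, 15 and 13 without ALI 1, and 11 and 13 without ALI 4. Over all genes, 4390 were called in SJY and 2366 in ALI in either direction. Leaving out 1 library gave 3329 to 5953 in SJY and 1538 to 2890 in ALI. In SJY, the split was 16 and 12 in a fit of only the 2 groups, 18 and 14 with array weights, of which 1 replication gene was lower, 17 and 11 with median-of-ratios scaling, 10 and 6 with no filter, and 9 and 3 with a minimum mean of 5 FPKM. In ALI, it was 7 and 2, 16 and 14, 17 and 15, 10 and 7, and 8 and 3 under the same settings. Over all genes, in the same order, 5853, 7654, 4671, 4442 and 3410 were called in SJY in either direction. The numbers in ALI were 1332, 3959, 2727, 2238 and 1838. The median log2 fold change in SJY was 0.62 for replication genes and 0.55 for mitosis genes, and in ALI 0.60 and 0.71, with median standard errors of 0.19 for replication genes and 0.26 for mitosis genes. At an unadjusted p under 0.05, 16 replication genes and 10 mitosis genes were higher in SJY, and 17 and 16 in ALI, with 1 replication gene, Gins2, lower in ALI. No test of the difference between the gene groups was made, because their genes were listed with earlier results of these libraries known.

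ALI libraries were more spread than those of the other groups in nearly all genes of both sets. The SD over libraries of log2(FPKM + 1) was larger in ALI than in control for 20 of 23 replication genes and 21 of 21 mitosis genes, and larger in SJY than in control for 13 of 23 and 13 of 21. It was larger in ALI than in SJY for 20 of 23 and 21 of 21. The share over all genes was not worked out, so the spread is not given as particular to these sets. For marker lists of other cell types, the SD was taken of summed FPKM without the log, so it also grows with the level. On that scale every list had a larger SD in ALI than in control. For type II cells it was 5577 FPKM (mean 14991) against 3189 FPKM (mean 21213), and for endothelium 170 FPKM (mean 411) against 44.8 FPKM (mean 424). For monocyte and macrophage markers, whose mean was higher in ALI, it was 61.6 FPKM (mean 434) against 37.0 FPKM (mean 216). These SDs cannot be set beside those of the genes. The mean over the replication genes, as a difference from the control mean, was 0.16, 0.65, 0.66, 0.39 and 0.62 in SJY libraries, 0.12, 0.43, 0.98, 0.44 and 0.69 in ALI libraries, and -0.15, -0.10, 0.03, 0.03 and 0.19 in control libraries. Over the mitosis genes it was 0.12, 0.70, 0.99, 0.50 and 0.76 in SJY libraries, 0.30, 0.50, 1.56, 0.11 and 1.02 in ALI libraries, and -0.17, -0.25, 0.07, 0.01 and 0.34 in control libraries. Both means put SJY 1 lowest in SJY and ALI 3 highest in ALI, and control 8 lay above the lowest library of each LPS group. The lowest ALI library differed between the means: ALI 1 for replication and ALI 4 for mitosis. ALI 4 was the lowest of the ALI libraries for 13 of the 21 mitosis genes, and ALI 1 for 17 of the 23 replication genes. Without ALI 3, the median log2 fold change in ALI was 0.43 for replication genes and 0.52 for mitosis genes, with 7 and 5 called. Without ALI 1 and ALI 3 together, 11 replication genes and 2 mitosis genes were called in ALI.

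**Figure D5:**
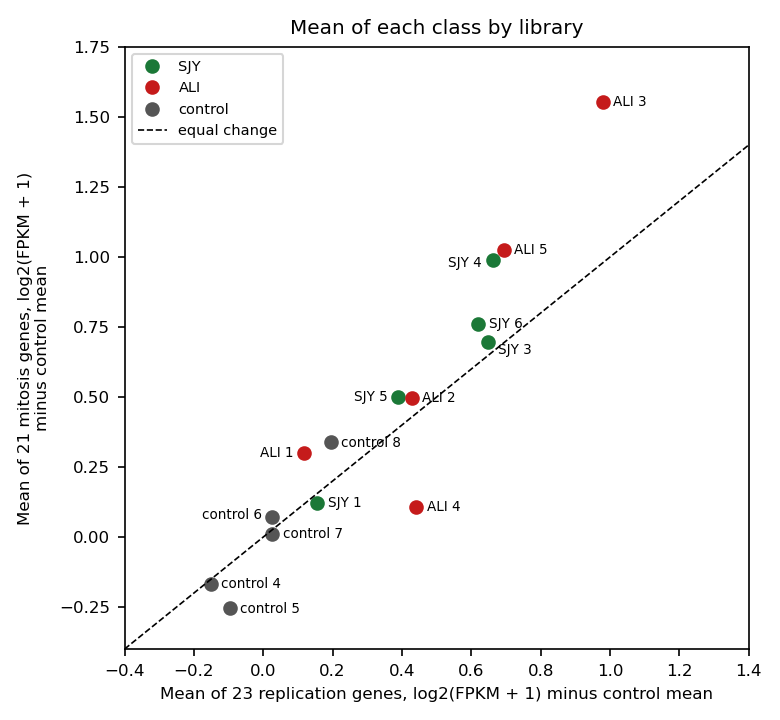
Mean log2(FPKM + 1) over 21 mitosis genes (vertical) against that over 23 replication genes (horizontal), each minus the mean of the control libraries, with 1 point per library and a dashed line of equal change. ALI 3 lies at 0.98 and 1.56 for replication and mitosis, above the line, and ALI 4 at 0.44 and 0.11, below it.

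In SJY against ALI, no replication or mitosis gene passed the test. Of the 44, 0 rose and 0 fell in SJY against ALI at an adjusted p under 0.05, and 0 reached an unadjusted p under 0.05 in either direction (limma). Among all genes, 1 of 13457 was called higher (0.00743%) and 0 lower (0%). Without ALI 1, 0 of the 44 and 181 of 13440 genes were called in either direction. All SJY libraries lay above all ALI libraries for 0 of the 44 genes, against 2.24% of all genes. The median log2 difference was -0.0032 over the replication genes, running from -0.45 to 0.24, and -0.11 over the mitosis genes, running from -0.37 to 0.23, against 0.03 over all genes.

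A p that misses the threshold does not show that the groups were alike, and the intervals were wide. The 95% interval of the log2 difference, SJY minus ALI, was -0.62 to 0.23 for Mcm5, -0.67 to 0.06 for Mcm6 and -0.83 to 0.31 for Rrm2. For Cdk1 it was -0.45 to 0.91, for Ccnb1 -0.65 to 0.61, for Birc5 -0.71 to 0.67 and for Mki67 -0.77 to 0.67. Aurka had the narrowest interval of the mitosis genes, -0.09 to 0.56. Tyms had the smallest adjusted p of the 44, 0.459, for a difference of -0.45 with an interval of -0.93 to 0.03.

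In ALI, 4 of the 44 genes had a fold change below 0, which were Gins2, Ccne2, Kif20a and Aurkb. Of all 13457 genes in the fit, 5064 were above 0 in that comparison, so values below 0 were common. In the RefSeq annotation of GRCr8, 10 of the 45 genes overlap another protein-coding gene, and 3 of these 4 do: Gins2 with Gse1, Ccne2 with Ints8 and Kif20a with Cdc23. The neighbours' log2 fold changes in ALI were -0.71 for Gse1 (adjusted p = 0.0694), -0.36 for Ints8 (adjusted p = 0.0877) and -0.37 for Cdc23 (adjusted p = 0.173), all below 0. Rrm2 overlaps Cys1, which fell by 1.80 on the log2 scale in ALI (adjusted p = 0.000365) where Rrm2 rose. Aurka overlaps Fam210b, whose log2 fold change in ALI was -0.47 (adjusted p = 0.156). Ide, which overlaps Kif11, had 0.03 in ALI (adjusted p = 0.907), and Ndufaf1, which overlaps Nusap1, had 0.22 (adjusted p = 0.301). Tyms, below 0 in SJY but not in ALI, overlaps no other gene. The strand setting of the counting is not given in the sources used here, and the part of overlapping reads in these values was not tested.

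Other genes of the same pathways were called in 1 direction only. A list of 50 further replication genes had 47 in the fit, of which 12 rose and 0 fell in SJY (25.5% higher, against 14.6% of all genes), and 8 rose and 0 fell in ALI (17.02% higher, against 8.02% of all genes). The largest rises in ALI were in Tk1, thymidine kinase, in the histone chaperones Asf1b and Chaf1b, and in Dscc1, a subunit of an alternative clamp loader. Tk1 averaged 11.8 ± 2.75 FPKM in SJY, 10.1 ± 3.84 FPKM in ALI and 3.24 ± 0.540 FPKM in control libraries (SD, n = 5 each), with log2 fold changes of 1.57 in SJY (adjusted p = 0.000114) and 1.33 in ALI (adjusted p = 0.000851). Asf1b, Chaf1b and Dscc1 had log2 fold changes of 0.96, 0.92 and 0.82 in SJY and of 0.96, 0.84 and 0.83 in ALI, all called. The median log2 fold change of the 47 was 0.25 in SJY and 0.26 in ALI, against -0.11 and -0.12 over all genes in the fit.

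Of 60 further mitosis genes with a line in the table, 55 were in the fit, of which 12 rose and 0 fell in SJY (21.8% higher, against 14.6% of all genes), and 14 rose and 0 fell in ALI (25.5% higher, against 8.02% of all genes). Cks2, a small subunit of cyclin-dependent kinases, rose by 1.31 in SJY (adjusted p = 0.00509) and by 1.35 in ALI (adjusted p = 0.00816). Pttg1, or securin, which guards sister chromosome cohesion, averaged 6.27 ± 1.63 FPKM in SJY, 6.82 ± 3.16 FPKM in ALI and 2.03 ± 0.489 FPKM in control libraries (SD, n = 5 each) and rose by 1.25 in SJY (adjusted p = 0.00203) and 1.29 in ALI (adjusted p = 0.00300). Cenph of the kinetochore and Cdca3 rose by 1.30 and 1.04 in SJY and by 1.20 and 1.12 in ALI. The median log2 fold change of the 55 was 0.40 in SJY and 0.41 in ALI. In SJY against ALI, 0 genes of either list were called.

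Of 31 regulators of the cycle in the fit, 3 rose and 6 fell in SJY, 9.68% and 19.4%, where 14.6% of all genes rose and 18.1% fell. In ALI, 3 rose and 4 fell, 9.68% and 12.9%, where 8.02% of all genes rose and 9.56% fell. The shares were near those of all genes, with median log2 fold changes of -0.03 in SJY and 0.04 in ALI. In ALI, the transcription factors E2f8, Mybl2 and E2f2 rose, by 0.80, 0.73 and 0.62 (adjusted p = 0.0175, 0.0488 and 0.0245). Cdkn1c, an inhibitor of cyclin-dependent kinases also called p57, averaged 14.9 ± 4.02 FPKM in SJY, 11.5 ± 5.33 FPKM in ALI and 28.0 ± 5.73 FPKM in control libraries (SD, n = 5 each) and had the largest fall in ALI, a log2 fold change of -1.38 (adjusted p = 0.0131), with -0.88 in SJY (adjusted p = 0.0592). Btg2, which restrains division, Ccnd1, cyclin D1, and Tfdp2, a partner of E2F factors, had log2 fold changes of -0.62, -0.61 and -0.60 in ALI (adjusted p = 0.0190, 0.0479 and 0.0202). In SJY, Mybl2 and E2f2 rose by 0.80 and 0.71, and Ccnd3, cyclin D3, by 0.44. The 4 largest falls in SJY were in Ccnd2, cyclin D2, at -1.26, Lin52 at -0.78, Cdk6 at -0.76 and Btg2 at -0.63, while Rb1, the retinoblastoma protein, stood at -0.59 and Tfdp2 at -0.54.

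Markers of other cell types moved between the same groups. For the counts below, 14.6% of all genes rose and 18.1% fell in SJY, and 8.02% rose and 9.56% fell in ALI. All 10 neutrophil markers rose in both LPS groups, and of 8 monocyte and macrophage markers in the fit, 7 rose in SJY and 6 in ALI, with summed levels of 386 to 542 FPKM in SJY, 374 to 536 FPKM in ALI and 176 to 255 FPKM in control libraries. Of 8 markers of granulocyte precursors, which are dividing cells of bone marrow, 3 were in the fit, and these 3 (Elane, Camp and Fcnb) rose in both. Elane was at most 0.41 FPKM in control libraries and passed the filter through the LPS groups. Over all 8 markers, the median log2 difference from control was -0.03 in SJY and 0.04 in ALI. The summed level of the 8 was 76.3 to 178 FPKM in SJY, 25.98 to 55.3 FPKM in ALI and 11.5 to 22.5 FPKM in control libraries, and Fcnb alone stood at 68.04 to 163 FPKM in SJY, 22.04 to 45.9 FPKM in ALI and 8.29 to 17.5 FPKM in control libraries. Mpo, a defining gene of these precursors, was at most 0.34 FPKM in any library of the LPS groups and stood at 0.83 FPKM in control 5. Ltf was listed at 0 in every SJY library. Ngp ran from 0.14 to 0.80 FPKM in SJY, 0.41 to 0.62 FPKM in ALI and 0.21 to 7.95 FPKM in control libraries. Prtn3 ran from 0 to 0.85 FPKM in SJY, 0.16 to 0.70 FPKM in ALI and 0.08 to 0.81 FPKM in control libraries. Of the erythroid precursor markers, Gata1 was listed at 0 in every library and none was called. The sum of the 5 with a line in the table was 16.3 to 21.5 FPKM in SJY, 14.5 to 23.8 FPKM in ALI and 11.4 to 20.2 FPKM in control libraries.

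Of 6 fibroblast markers, 3 rose in each LPS group, with summed levels of 600.4 to 756 FPKM in SJY, 394 to 869 FPKM in ALI and 300.2 to 411 FPKM in control libraries. Markers of B and plasma cells were not called, and their sum ran from 186 to 1087 FPKM in SJY, 71.2 to 1777 FPKM in ALI and 239 to 961 FPKM in control libraries. Of 10 markers of T and NK cells, 1 rose in SJY and 0 in ALI, with sums of 102 to 191 FPKM in SJY, 74.3 to 235 FPKM in ALI and 146 to 179 FPKM in control libraries. Of 5 endothelial markers in the fit, 1 rose and 1 fell in each LPS group. Markers of alveolar type I cells were lower: 6 of 8 fell in SJY and 8 of 8 in ALI, with sums of 1592 to 2557 FPKM in SJY, 673 to 2175 FPKM in ALI and 3034 to 4241 FPKM in control libraries. Of the 8 type II markers, 3 fell in SJY and 2 in ALI, and 0 rose. In these comparisons, 18.1% and 9.56% of all genes fell. The part of these cell types in the levels of the replication and mitosis genes was not tested.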

How the data were processed

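Lung RNA of 15 rat libraries was analysed, grouped by the labels. TRIzol was used for extraction and the NEBNext Ultra RNA kit for the libraries, per the labels' protocols. Tools named in the submitters' processing notes are StringTie, HISAT2 and cutadapt, without versions, and the build there is Rnor_6.0. The authors deposited FPKM values per gene, 1 column for each library, and no column was without a sample. FPKM tables hold no read counts, so the depth is unknown and no counting interval is given. Ratios of low values of the same genes to control 8 put the relative depth of the libraries within 1.16-fold. Only ratios near equality were searched, so a large difference in depth could not have shown.

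FPKM values were taken as log2(FPKM + 1), which understates the change of low genes. Genes at 1 FPKM or more in at least 5 libraries were fitted with limma 3.58.1 in R 4.3.3 (lmFit, eBayes with trend and robust settings), with all 3 groups in 1 fit and the contrasts two-sided. Calls were made at an adjusted p under 0.05 (Benjamini-Hochberg, over all 13457 genes). Means and SDs are of FPKM, and SEs and 95% intervals are limma's. The script was tested on simulated data. Values in every library are given for the 4 called genes of each set with the largest and the 2 with the smallest absolute log2 fold change in ALI, and for a few more with a central role. Of each further list, up to 4 called genes with the largest change per direction are named, and any other is named to complete a count or a complex. Promoters of 300 bases came from RefSeq on GRCr8, and no coordinates of the deposited build are given. Alternatives were another scaling, pseudocount and filter, other limma settings, array weights, a fit without the third group, a block for the replicate number and leaving out libraries. The genes and lists were chosen with earlier results of these data known.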

Additional observations from a re-analysis of the deposited data

Results flagged for a closer look

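The values of each gene, and the mean of each set, were examined in each group of 5 libraries for a highest or lowest library whose gap to the nearest other exceeded 0.71 of the group's range. Of 138 such sets of 5 values, 7 had one, and chance gives about 1 in 20. All 7 were a low library, given as log2(FPKM + 1). SJY 1 was the low library of its group for Mcm6 (2.93), Mcm7 (4.19), Ccne2 (2.02) and Kif20a (2.49). SJY 5 was low for Rfc4 (3.71). ALI 1 was low for Gins2 (2.60) and for Ccne2 (1.72). In ALI 1 the share of mitochondrially encoded genes was 37.7% of the summed FPKM, and in SJY 1 it was 17.1%. The part of that share in these values was not tested.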

How the results depend on the processing

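The number of genes called was the result that moved. It was 18 in ALI and 21 in SJY against control. Median-of-ratios scaling, which put the median of all genes at 0.0011 in ALI where it had been -0.12 (and at -0.0035 in SJY where it had been -0.11), gave 32 in ALI. A minimum mean of 5 FPKM left 20 of the 44 genes in the fit and gave 12 in SJY and 11 in ALI. A fit of only the 2 groups compared gave 9 in ALI, and array weights gave 32 in SJY, with Gins2 the 1 lower, and 30 in ALI. Leaving out single libraries gave 13 to 25 in SJY and 11 to 28 in ALI. Calls over all genes, in either direction, moved as well, from 4390 in SJY and 2366 in ALI in the main fit. Median-of-ratios scaling gave 2727 in ALI, and a minimum mean of 5 FPKM gave 3410 in SJY and 1838 in ALI, of 9901 genes. The fit of only the 2 groups gave 1332 in ALI, and array weights gave 7654 in SJY and 3959 in ALI. Without 1 library, the range was 3329 to 5953 in SJY and 1538 to 2890 in ALI. The cause of these shifts was not tested, apart from the number of genes and libraries each setting leaves. In SJY against ALI, the count was 0 in every setting run, also without ALI 1 and ALI 3 together. Over all genes it was 1 of 13457 in the main fit, 181 of 13440 without ALI 1 and 155 of 13371 without ALI 1 and ALI 3. Array weights gave 478 of 13457 genes.

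The labels give some libraries of different groups the same number, without saying that it marks a shared animal, batch or day. Correlations of same-numbered libraries' deviations from their group means ran from -0.39 to 0.30, so the numbers were not taken to pair them. With the replicate number as a block, 11 genes were called in SJY (10 of them among the 21), 8 in ALI (6 among the 18) and 0 in SJY against ALI. Over all genes, 1142, 313 and 1 of 13457 were called in either direction. The block ended the SJY calls of Cdk1, Rfc4, Tpx2, Ccne1, Ube2c, Fen1, Pcna, Cdc6, Uhrf1, Birc5 and Ccnb1. In ALI it ended those of Cdk1, Rfc4, Tpx2, Mcm2, Mcm3, Cdt1, Ube2c, Ccna2, Kif2c, Uhrf1, Birc5 and Ccnb1.

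Medians kept their sign in the comparisons with control. Over the alternatives, the median log2 fold change ran from 0.54 to 0.70 for replication genes and from 0.46 to 0.89 for mitosis genes in SJY, and from 0.43 to 0.76 and from 0.52 to 1.03 in ALI. In SJY against ALI it ran from -0.14 to 0.10 and from -0.27 to 0.13. Mcm4, Mcm5, Mcm6, Rfc3, Rrm2 and Aurka were called in ALI under all 24 alternatives. With 5 libraries a group and no counts, differences smaller than the intervals given cannot be resolved.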
